A study of Mus musculus with 3 samples.

Results

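Ion channels that open when the membrane is stretched or the cell is pushed were followed through culture on plates of different stiffness. The set holds 10 mouse genes, chosen by name, out of 56833 genes in the deposited table: Piezo1, Piezo2, Trpv4, Trpv2, Trpm7, Pkd1, Pkd2, Kcnk2, Tmem63a and Tmem63b. All 10 were in the table, had reads in every library and had a mean of at least 50 normalized counts, the minimum used below. The cells came from mouse ankle synovium, the lining tissue of the joint, and are called telocytes by the labels, an interstitial cell with long thin processes. All cells carried Efhd1CreER, a Cre recombinase driven by the Efhd1 gene, and Ai9, a reporter allele that makes the red protein tdTomato after Cre has acted. They were sorted for tdTomato and cultured for 24 h on collagen-coated CytoSoft plates whose stiffness was 0.2 kPa, 8 kPa or 64 kPa, here named soft, intermediate and stiff.

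Each stiffness had 1 library of polyadenylated RNA, so no difference has a replicate check, no p-value is given, and a difference between cultures cannot be told apart from a difference in stiffness. The age and sex of the mice, the number of animals behind a library and the agent used to activate CreER are not given in the sources used here. The question behind the series was whether a stiffer matrix turns these cells into fibroblasts.

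Mechanosensitive channels turn a mechanical force into an ion current. Piezo1 and Piezo2 form large trimeric channels that let calcium and other cations in when the membrane is tensed. Trpv4, Trpv2 and Trpm7 belong to the transient receptor potential family, Pkd1 and Pkd2 encode the polycystins of the primary cilium, Kcnk2 encodes the stretch-activated potassium channel TREK-1, and Tmem63a and Tmem63b belong to the OSCA family. Calcium entering through such channels can act on calcineurin, NFAT and the contractile apparatus of connective tissue cells.

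In these libraries Pkd2 and Piezo1 were the most abundant members and Piezo2 the least abundant. Trpv2, Piezo1 and Trpv4 were higher in the stiff than in the soft library, by log2 ratios of 1.12, 0.75 and 0.69. Ratios across all genes followed transcript length and GC content, and when that trend was subtracted Trpv2 stood at 1.06 and Trpv4 at 0.53, while Piezo1 came to -0.05. The 13 macrophage markers at the minimum mean were also higher in the stiff than in the soft library. Their median was 1.25, or 1.2 with the trend subtracted, and the part of macrophages in the channel ratios was not tested. As measured, Kcnk2, Tmem63b and Piezo2 did not differ between stiff and soft beyond counting error, with the interval of Piezo2 ending at 0.00.

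The bases upstream of the 3 members whose stiff to soft log2 ratio reached 0.5 are shown because these genes were the ones higher in the same library. Each run is the 250 bases before the start of the Ensembl canonical transcript, written 5′ to 3′ on the gene's strand in GRCm39, and capitals mark matches to any of 5 motifs searched on both strands.
Piezo1, chr8:123278073-123278322, minus strand: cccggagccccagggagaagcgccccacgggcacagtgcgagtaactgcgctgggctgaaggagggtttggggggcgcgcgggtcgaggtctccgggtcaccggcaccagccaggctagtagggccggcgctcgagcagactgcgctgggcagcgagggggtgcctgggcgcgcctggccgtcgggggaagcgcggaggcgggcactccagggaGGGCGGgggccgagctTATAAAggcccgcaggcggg
Trpv2, chr11:62465054-62465303, plus strand: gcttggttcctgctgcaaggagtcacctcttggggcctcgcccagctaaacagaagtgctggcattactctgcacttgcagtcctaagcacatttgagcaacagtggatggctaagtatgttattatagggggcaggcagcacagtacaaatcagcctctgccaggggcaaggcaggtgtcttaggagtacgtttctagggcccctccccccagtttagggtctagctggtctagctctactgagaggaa
Trpv4, chr5:114796503-114796752, minus strand: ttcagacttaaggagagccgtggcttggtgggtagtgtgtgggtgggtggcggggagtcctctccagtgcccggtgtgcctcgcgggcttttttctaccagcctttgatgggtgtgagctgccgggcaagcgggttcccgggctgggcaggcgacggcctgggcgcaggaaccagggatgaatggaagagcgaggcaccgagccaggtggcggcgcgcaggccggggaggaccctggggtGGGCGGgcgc
The motifs were TATAAA, the core of the TATA box, GGGCGG, the core bound by Sp1, GGAATG, the core bound by TEAD factors, TGANTCA, the core bound by AP-1, and the CArG box bound by SRF. The Piezo1 window held TATAAA from 20 to 15 bases before the start and GGGCGG from 36 to 31 bases before it. The Trpv4 window held GGGCGG once, from 10 to 5 bases before the start, and the Trpv2 window held none of the 5. None of the 3 windows held the TEAD, AP-1 or SRF motif. Of 19825 windows of the same length upstream of protein-coding genes, 10.7% held TATAAA, 39.0% GGGCGG, 12.1% GGAATG, 6.03% TGANTCA and 1.36% the CArG box. The Piezo1 window had 27 CpG dinucleotides and 74.8% GC, the Trpv4 window 19 and 68.8%, and the Trpv2 window 2 and 53.6%, against medians of 9 and 54.0% over all windows. The 3 upstream sequences thus differed in composition.

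The libraries held 25487064 (soft), 28081600 (intermediate) and 26474862 (stiff) reads. Values are normalized counts, that is reads divided by a size factor per library, and 1 read was worth 1.03, 0.943 and 1.03 of them in that order. Log2 ratios were taken after adding 1 to each value, and each has an exact 95% Clopper-Pearson interval that covers counting error only. The 13 fibroblast and telocyte markers summed to 345095, 400126 and 463701 normalized counts on soft, intermediate and stiff plates. Of the 11 at the minimum mean 7 had positive stiff to soft ratios and 4 negative ones, with a median of 0.25, and 0.05 after subtraction of the trend with length and GC content described below. Col1a1 had 76716, 117444 and 148058 reads (0.95, or 0.43 with the trend subtracted) and Pdgfra 5739, 6681 and 4991 (-0.20, or -0.32). Efhd1, which marked the cells, had 10, 5 and 3 reads on soft, intermediate and stiff plates. Cd34 and Kit, often used to mark telocytes, had 229, 257 and 310 reads and 41, 41 and 44 reads. Markers of macrophages, cells that also carry Piezo1 and Trpv2, were present and unequal: in the same order the 14 marker genes summed to 30044, 37174 and 64855 normalized counts. None of the 14 was at 0, Ptprc had 267, 390 and 550 reads and Csf1r 1236, 1830 and 3275, and the 13 that reached the minimum mean all had positive stiff to soft ratios. Of other cell types, all 6 erythroid genes had no read in any library. The 10 endothelial genes summed to 1758, 2075 and 3176 normalized counts: Cldn5 had no read and Cdh5 had 5, 3 and 0, while Kdr had 21, 27 and 45, and Eng, the only one at the minimum mean, had 1649, 2096 and 2986. The 9 mural cell markers summed to 3185, 4142 and 4149 normalized counts, and of the 5 at the minimum mean 3 had positive stiff to soft ratios, Mcam at 0.86, Cspg4 at 0.53 and Ndufa4l2 at 0.30, while Rgs5 stood at -0.08, Notch3 at -0.05 and Higd1b had no read. Less the trend, Cspg4 turned to -0.28, Rgs5 to 0.02 and Notch3 stood at -0.88, and the median of the 5 went from 0.30 to 0.02. The 9 Schwann cell and neuronal markers summed to 532, 569 and 820, with Mbp at 1.22, Tubb3 at 0.94 and S100b at -0.60. Of the same list Sox10 had 1, 5 and 1 reads and Rbfox3 none. The 8 skeletal muscle markers summed to 78.9, 106 and 115. The part of these cell types in the channel ratios was not tested. In bulk RNA fewer cells of a type and less RNA per cell cannot be told apart.

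Levels of different genes were compared per length, as reads per kilobase of the canonical transcript scaled to the same total in each library (the TPM scale). On this scale Pkd2 averaged 104 over the 3 libraries, Piezo1 78.7, Tmem63a 40.8, Tmem63b 36.2, Trpm7 24.2, Trpv2 18.1, Pkd1 17.1, Kcnk2 5.42, Trpv4 4.09 and Piezo2 1.26. The first 4 places and the last were held by the same genes in each library. Trpv2 moved from the seventh place in the soft and intermediate libraries to the fifth in the stiff library. Per length Trpv4 stood at 0.62 of Kcnk2 in the soft library (interval 0.492 to 0.776) and at 1.01 in the stiff library (0.833 to 1.24). By the length of all annotated exons the stiff library's ratio was 0.77 (0.632 to 0.938), so whether the 2 were apart there depends on the transcript model. Neighbouring members in this order were not all apart: Tmem63a stood at 35.4 and Tmem63b at 34.7 in the soft library, within counting error, although by the length of all annotated exons their means were 55.3 and 18.1. The order rests on the transcript model, since the length of all annotated exons in place of the canonical transcript put Piezo1 first at 121 and Pkd2 second at 70.3, and 5 of 10 members kept their place. Summed over the 10 members the per-length level was 295 on soft, 338 on intermediate and 358 on stiff plates. Piezo1 made up 19.6%, 24.0% and 27.2% of that sum, and Pkd2 35.8%, 31.8% and 27.8%.

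**Figure D1:**
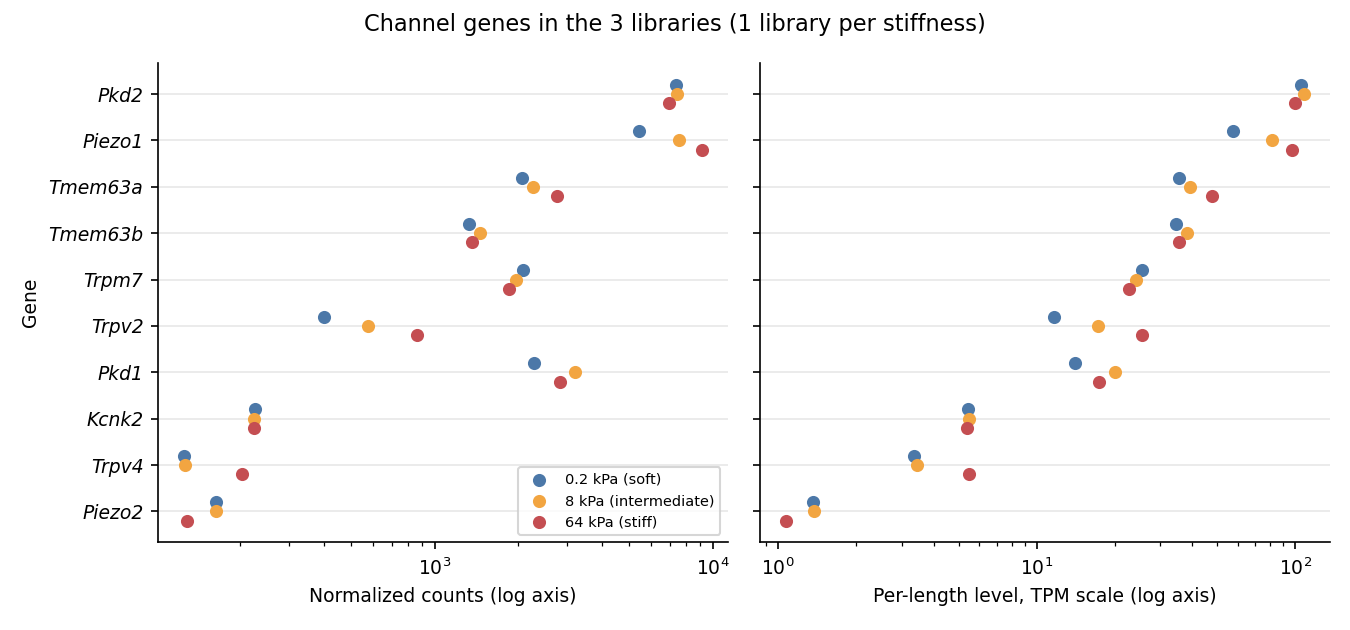
Normalized counts (left) and per-length levels on the TPM scale (right) of the 10 channel genes on log axes, with 1 point per library coloured by stiffness. Trpv2 and Piezo1 are spread in the order soft, intermediate, stiff, while the 3 points of Kcnk2 lie on each other at 225.5, 224.4 and 223.6 normalized counts.

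Between the stiff and the soft library 3 of the 10 members were higher by a log2 ratio of at least 0.5 and none was lower by as much. Of the 11873 genes that reached the minimum mean, 11.8% were higher by at least 0.5 and 3.77% lower. With the length and GC trend subtracted, as described below, 2 members were higher (Trpv2 at 1.06, Trpv4 at 0.53) and 2 lower (Piezo2 at -0.88, Pkd1 at -0.81), against 7.86% and 4.1% of genes. At a log2 ratio of 1 or more 1 member, Trpv2, was higher, against 3.22% of all genes, and none was lower, against 0.387%. The counting interval lay above 0 for 5 members, against 31.3% of all genes, and below 0 for 2, against 25.9%, so leaving out 0 was common at this depth. The median ratio of the 10 members was 0.18, beside 0.00 for all tested genes, and -0.05 with the trend subtracted.

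The dependence on length and GC content touches the long members most. Across 11655 tested genes with an annotated transcript, stiff to soft ratios had a Spearman correlation of 0.26 with length and of 0.26 with GC content, a description across genes that share the same libraries. A local linear fit over the 300 genes nearest in length and GC content gave the ratio that the trend alone has at each member. This was 1.12 for Pkd1, 0.80 for Piezo1 and 0.53 for Piezo2, the longest members at 14.16, 8.22 and 10.52 kb, and between -0.12 and 0.23 for the other 7. For Pkd1 the fit had little support, since only 50 tested genes, 0.429%, were at least as long and the genes used had a median length of 8.46 kb. Piezo2 and Piezo1 were also fitted on genes with shorter medians, 8.98 and 6.68 kb. Of tested genes 2.2% were at least as long as Piezo2 and 5.89% at least as long as Piezo1. What the trend reflects was not tested.

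**Figure D2:**
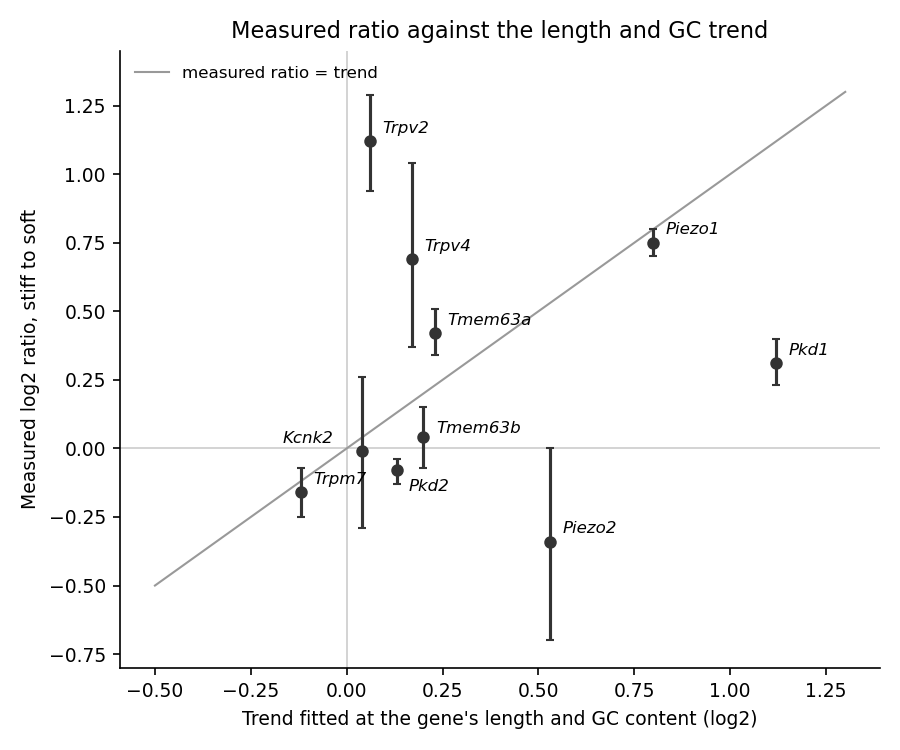
Measured stiff to soft log2 ratio of each channel gene, with its 95% counting interval, against the ratio fitted at its transcript length and GC content; the grey line marks equality. Piezo1 lies at the line (0.75 measured, 0.80 fitted), Trpv2 and Trpv4 lie above it, and Pkd1 and Piezo2 lie below it.

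Piezo1, the main force-gated cation channel of non-neuronal cells, maps to the minus strand of chromosome 8 from 123208437 to 123278072 and has 51 exons in its canonical transcript. It gave 5425 normalized counts on soft, 7549 on intermediate and 9140.3 on stiff plates. The values were in the order of the stiffness, with the soft library lowest. The stiff to soft log2 ratio was 0.75, with an interval from 0.70 to 0.80, and 93.7% of tested genes had a lower ratio. The intermediate to soft ratio was 0.48 (interval 0.43 to 0.53) and the stiff to intermediate ratio 0.28 (0.23 to 0.32). With the trend subtracted the ratios were -0.05, -0.02 and -0.05 in the order stiff to soft, intermediate to soft, stiff to intermediate, so Piezo1 differed between libraries by about as much as genes of its length and GC content did. Piezo1 equalled 18.1%, 20.3% and 14.1% of the summed macrophage markers on soft, intermediate and stiff plates, and the part of those cells was not tested. Piezo1 also overlaps Ctu2, a tRNA-modifying enzyme gene on the opposite strand: their annotated exons share 3924 bases, 39.48% of those of Piezo1, and their canonical transcripts share 990. Ctu2 had 484, 439 and 437 reads on soft, intermediate and stiff plates, far fewer than the 5292, 8008 and 8913 of Piezo1. The libraries were made with a stranded kit, but whether counting used the strand is not given in the sources used here, so reads in the shared bases are uncertain.

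By distance in the pair of ratios intermediate to soft and stiff to intermediate, the genes with the pattern nearest to Piezo1 among 11290 were Micall1, Gpatch8 and Brd3, at distances of 0.0094, 0.0133 and 0.0185. Brd3 stood at 414, 570.3 and 695 normalized counts. Over only 3 libraries such a pattern is common, with 94 genes within a distance of 0.1.

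Piezo2, the channel of touch and proprioceptive neurons, maps to the minus strand of chromosome 18 from 63143284 to 63520260, with 52 exons. It gave 163.0 normalized counts on soft, 163 on intermediate and 128 on stiff plates, from 159, 173 and 125 reads. The stiff library was the lowest. The intermediate to soft ratio was 0.00, with an interval from -0.32 to 0.32, and -0.37 with the trend subtracted. The stiff to intermediate ratio was -0.35, with an interval from -0.69 to -0.01, and the stiff to soft ratio was -0.34, with an interval from -0.70 to 0.00. Only 8.8% of tested genes had a lower stiff to soft ratio, and with the trend subtracted Piezo2 stood at -0.88. The nearest patterns were those of Rprd1a, Nudt14 and Tspan5, at distances of 0.0054, 0.0074 and 0.0074, and 353 genes lay within 0.1.

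Within a library the ratio of 2 genes does not depend on the scaling. Per length, Piezo1 was 42.6 times as abundant as Piezo2 in the soft library (interval 36.4 to 50.2), 59.2 times in the intermediate library (50.9 to 69.2) and 91.2 times in the stiff library (76.4 to 110). As measured the intervals did not overlap, but those of the soft and intermediate libraries were only just apart. The trend differs between Piezo1 and Piezo2 and so enters this ratio. Its log2 change was 1.1 from soft to stiff, 0.48 from soft to intermediate and 0.62 from intermediate to stiff as measured, and 0.83, 0.35 and 0.47 with the trend subtracted. The separation of soft from intermediate therefore holds for the measured ratios and was not tested after that subtraction.

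**Figure D3:**
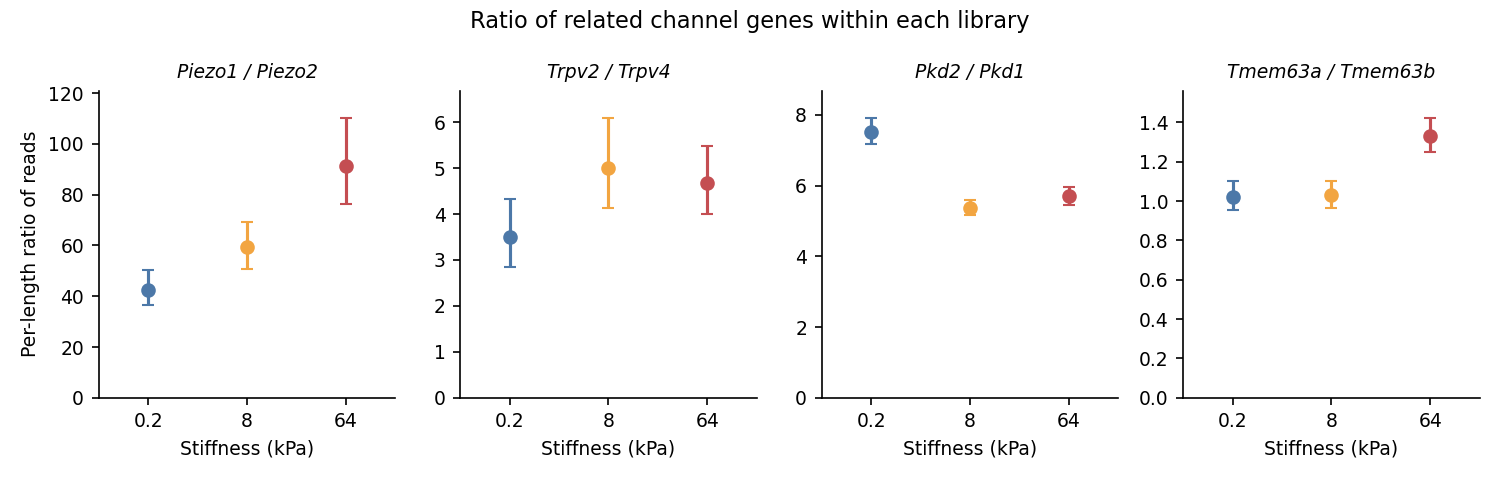
Per-length ratio of reads between related channel genes in each library, with exact 95% intervals of the read share; the x axis gives the stiffness in kPa. Piezo1 over Piezo2 is 42.6, 59.2 and 91.2 on soft, intermediate and stiff plates, while Tmem63a over Tmem63b, by canonical transcript length, is 1.02, 1.03 and 1.33.

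Trpv2, a cation channel of the vanilloid branch found in fibroblasts and strongly in macrophages, maps to the plus strand of chromosome 11 from 62465304 to 62491341, with 16 exons. It gave 399, 577 and 866 normalized counts on soft, intermediate and stiff plates, from 389, 612 and 844 reads. Its values followed the order of the stiffness and both steps were past counting error. Stiff to soft, the ratio was 1.12 (interval 0.94 to 1.29), a fold of 2.17, above that of 97.8% of tested genes. The intermediate to soft ratio was 0.53 (0.35 to 0.72) and the stiff to intermediate ratio 0.58 (0.43 to 0.74). Its transcript of 2.97 kb was no longer than those of 59.7% of tested genes, and with the trend subtracted the 3 ratios were 1.06, 0.51 and 0.55. The macrophage markers moved with it: their median was 1.25 for stiff to soft, 0.44 for intermediate to soft and 0.76 for stiff to intermediate. From soft to stiff, Trpv2 equalled 1.33%, 1.55% and 1.33% of the summed macrophage markers. The part of these cells in the ratio of Trpv2 was not tested.

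Trpv4, a calcium-permeable channel that responds to cell swelling and is well known in cartilage, maps to the minus strand of chromosome 5 from 114760209 to 114796914, with 16 exons. It gave 125 normalized counts on soft, 126 on intermediate and 203.0 on stiff plates, from 122, 134 and 198 reads. The stiff library stood above both others. Stiff exceeded soft by 0.69 (interval 0.37 to 1.04) and intermediate by 0.68 (0.36 to 1.01) on the log2 scale, above the ratios of 92.9% and 97.2% of tested genes. The intermediate to soft ratio of 0.01 (interval -0.35 to 0.38) allows a change of either sign. With the trend subtracted the stiff to soft ratio was 0.53 and the stiff to intermediate ratio 0.59. The 8 chondrocyte markers summed to 35175, 38718 and 43748 normalized counts in the same order of libraries. Comp alone held 30733, 33309.5 and 36845 of these. The 4 at the minimum mean had positive stiff to soft ratios, with a median of 0.44, but the Sox9 interval, -0.14 to 0.24, held 0. Col2a1 stood at 1.46, Prg4 at 0.62, Comp at 0.26 and Sox9 at 0.05. Less the trend, these 4 were 0.90, 0.64, 0.15 and 0.02. Below the minimum mean, Acan had 22, 53 and 64 reads, while Col9a1 and Matn1 had no read. The part of such cells in the ratio of Trpv4 was not tested. Trpv2 was 3.49 times as abundant per length as Trpv4 in the soft library (interval 2.84 to 4.32), 5.0 times in the intermediate library (4.14 to 6.08) and 4.67 times in the stiff library (3.99 to 5.48), intervals that overlap.

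Trpm7, a channel fused to a kinase that carries magnesium and calcium, maps to the minus strand of chromosome 2 from 126633480 to 126718182, with 39 exons. It gave 2075, 1963 and 1857 normalized counts on soft, intermediate and stiff plates. The stiff to soft ratio was -0.16, with an interval from -0.25 to -0.07, and neither step alone left out 0. Its GC content of 40.2% is the lowest of the members, and the trend there was -0.12, which leaves -0.04.

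Pkd1, the large receptor-like polycystin-1, maps to the plus strand of chromosome 17 from 24768808 to 24815482, with 46 exons. It was highest in the intermediate library, with 2268 normalized counts on soft, 3209.9 on intermediate and 2821 on stiff plates. The intermediate to soft ratio was 0.50 (interval 0.42 to 0.58) and the stiff to intermediate ratio -0.19 (-0.26 to -0.11), so the 2 steps had opposite signs. Between stiff and soft the ratio was 0.31 (0.23 to 0.40). With the trend subtracted these became -0.19, -0.61 and -0.81, a reversal of the first and the last, but the fit at Pkd1 had little support. The canonical transcripts of Pkd1 and its neighbour Tsc2, on the opposite strand, share 700 bases, and Tsc2 had 1262, 1595 and 1804 reads.

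Pkd2, the polycystin-2 channel subunit that pairs with polycystin-1, maps to the plus strand of chromosome 5 from 104607240 to 104654573, with 15 exons. It stood at 7360, 7438 and 6943 normalized counts, with the stiff library slightly below the others. Its stiff to soft ratio was -0.08, with an interval from -0.13 to -0.04, and -0.21 with the trend subtracted. Per length Pkd2 was 7.53 times as abundant as Pkd1 in the soft library (interval 7.18 to 7.9), 5.38 times in the intermediate (5.16 to 5.6) and 5.71 times in the stiff library (5.46 to 5.97). As measured the soft library had the highest ratio, outside the intervals of the others, but subtraction of the trend turns this order. That turn rests on the trend fitted at Pkd1, which had little support. The log2 change of Pkd2 over Pkd1 was -0.40 from soft to stiff and -0.49 from soft to intermediate as measured, and 0.60 and 0.12 with the trend subtracted. By the length of all annotated exons the ratios were 3.37, 2.41 and 2.56.

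Kcnk2, whose TREK-1 channel lets potassium out when the membrane is stretched, maps to the minus strand of chromosome 1 from 188940126 to 189134470, with 7 exons. It stood at 225.5, 224.4 and 223.6 normalized counts, nearly equal values from few reads. The stiff to soft ratio of -0.01, or -0.06 with the trend subtracted, had an interval from -0.29 to 0.26, so a change within that range was not detectable at this depth.

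Tmem63a and Tmem63b encode OSCA channels that open at high membrane tension or on osmotic shrinkage or swelling. Tmem63a, on the plus strand of chromosome 1 from 180769879 to 180804358 with 23 exons, gave 2059, 2263 and 2758 normalized counts on soft, intermediate and stiff plates. Its stiff to soft ratio was 0.42 (interval 0.34 to 0.51), and 0.19 with the trend subtracted. The steps were 0.14 (0.05 to 0.22) and 0.28 (0.20 to 0.36), so the values followed the order of the stiffness. Tmem63b, on the minus strand of chromosome 17 from 45971085 to 45997839 with 24 exons, stood at 1329, 1453 and 1365. Its stiff to soft ratio was 0.04, with an interval from -0.07 to 0.15, and -0.16 with the trend subtracted. Its annotated exons share 1103 bases, 8.87% of them, with Mrpl14, a mitochondrial ribosomal protein gene on the opposite strand. Mrpl14 had 1230, 1292 and 1057 reads, about as many as the 1296, 1541 and 1331 of Tmem63b, so reads in the shared bases are uncertain, although the canonical transcripts share 0 bases. Tmem63a likewise shares 72 bases, 1.04% of its exons, with Ephx1 on the opposite strand, which had 10185, 11120 and 11600 reads. Per length the pair stood at 1.02 (interval 0.953 to 1.1) in the soft library, 1.03 (0.964 to 1.1) in the intermediate and 1.33 (1.25 to 1.42) in the stiff library, where the interval did not reach the others. By the length of all annotated exons the ratios were 2.77, 2.79 and 3.62. The trend fitted at the 2 genes was nearly equal, at 0.23 and 0.20.

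The steps between libraries were also taken over the whole set. Between intermediate and soft 2 members, Trpv2 and Pkd1, were higher by at least 0.5, against 3.94% of all tested genes, and Piezo1 lay just under at 0.48. This count was 1 with a pseudocount of 10, with 2 scalings to total reads and with the trend subtracted, where Trpv2 stood at 0.51 and Pkd1 at -0.19, and 0 with upper quartile scaling. As measured none was lower by as much, against 0.657%. With the trend subtracted 1 member was higher and 0 were lower, against 2.19% and 0.729% of genes. Between stiff and intermediate 2 members, Trpv4 and Trpv2, were higher by at least 0.5, against 5.42%, and none was lower, against 3.42%. With the trend subtracted the same 2 were higher and 2 were lower, Pkd1 at -0.61 and Piezo2 at -0.51, against 4.73% and 3.34% of genes. No member reached a log2 ratio of 1 at either step, where 0.16% of tested genes were higher and 0.00842% lower at the first step, and 0.825% and 0.421% at the second. Intervals were above 0 for 5 members and below 0 for 0 at the first step, against 21.8% and 13.5% of tested genes. At the second they were above 0 for 4 and below 0 for 3, against 26.3% and 22.0%. The intervals of both steps were above 0 for 3 members, Piezo1, Trpv2 and Tmem63a, and for 10.6% of tested genes. The comparisons share libraries, so their ratios are not independent of each other.

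**Figure D4:**
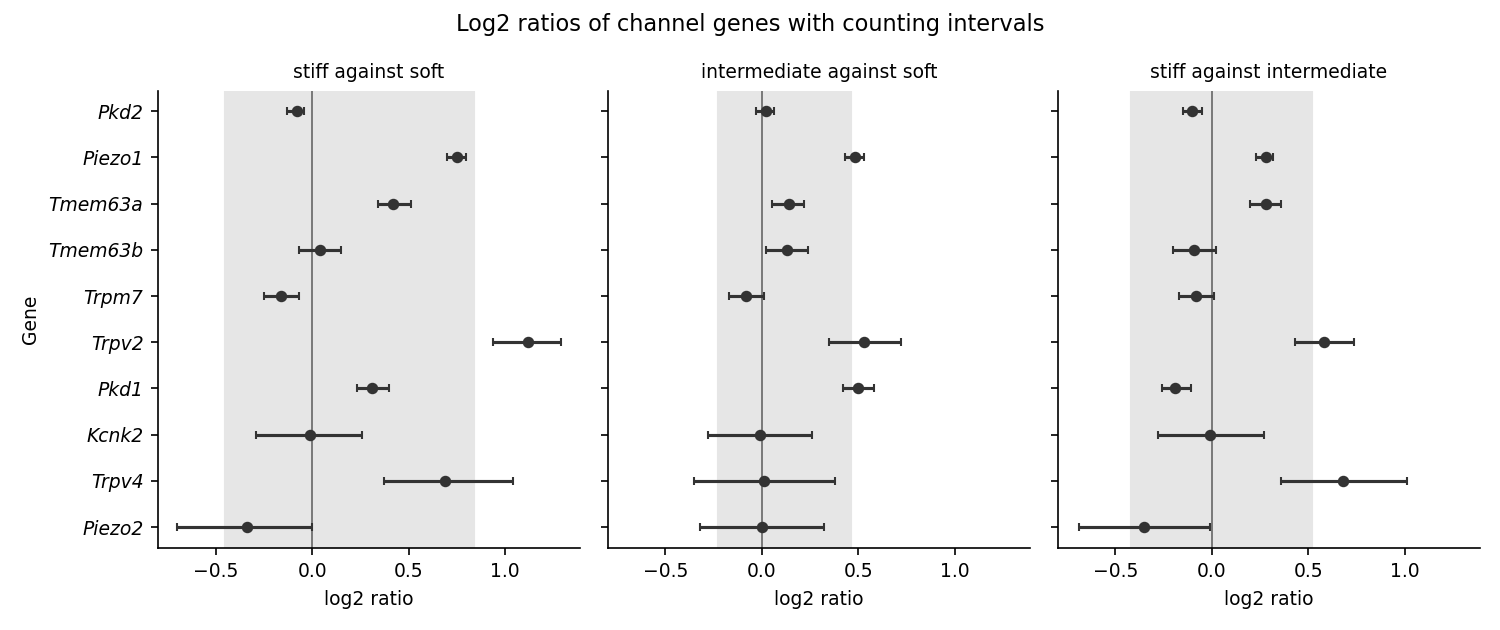
Log2 ratios of the 10 channel genes in the 3 comparisons with exact 95% counting intervals; the grey band spans the 5th to the 95th percentile of all 11873 tested genes. Trpv2 lies above the band in each panel, and Kcnk2 lies at 0. Piezo1 lies inside the band between stiff and soft (0.75 against an upper edge of 0.84). Between intermediate and soft Piezo1 (0.48) and Pkd1 (0.50) lie above its edge of 0.46. Trpv4 (0.68) lies above the edge of 0.52 between stiff and intermediate.

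Other genes of the same families and of the pathways around these channels were summarised from fixed lists, over genes with a mean of at least 50. The counts that follow are for stiff against soft, where 11.8% of all tested genes were higher by at least 0.5, 3.77% were lower by as much, 51.1% had a positive ratio and 48.9% a negative one. Once the trend was subtracted 7.86% were higher by at least 0.5, 4.1% were lower, and 50.1% were positive. Of 22 other TRP genes 5 had that mean and 7 had no read, among them Trpa1. In the stiff against soft comparison 1 of the 5 was higher by at least 0.5 and none lower, with a median of -0.14. The one was Mcoln2, an endolysosomal channel, at 140.5, 155.5 and 265 normalized counts (0.91, interval 0.61 to 1.22). Mcoln1, the lysosomal calcium channel and the most abundant of them, stood at 0.00, and Trpm6 was lowest at -0.43, with an interval from -1.05 to 0.16. After subtraction of the trend Mcoln2 stood at 0.97, Mcoln1 at -0.03 and 2 genes were lower by at least 0.5, Trpm6 at -0.59 and Trpm4, named after its value was seen, at -0.61. Trpv1 had 0, 0 and 2 reads.

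Of 13 other two-pore potassium channels 5 reached the mean, with 1 higher and 1 lower by at least 0.5. Kcnk13, known from microglia and macrophages, stood at 118, 163 and 246 normalized counts (1.06, interval 0.74 to 1.40), and Kcnk5, an acid-sensitive channel, at 98.4, 90.5 and 55.4 (-0.82, interval -1.34 to -0.33). The trend-subtracted ratios of the 2 were 0.93 and -0.92, and Kcnk12, also named after its value was seen, stood at -0.59. Kcnk13 and Mcoln2 had similar shares of the macrophage marker sum, at 0.392%, 0.439% and 0.379% for Kcnk13 and 0.467%, 0.418% and 0.408% for Mcoln2, and the part of those cells was not tested. Kcnk4, which encodes the force-gated channel TRAAK, had no read. Of 9 other OSCA and TMC genes 2 reached the mean, Tmc6 at -0.34 and Tmc7 at 0.25, and Tmem63c had 0, 1 and 0 reads. None of 7 other polycystin genes did.

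Of 10 genes for proteins tied to Piezo channels 7 reached the mean, with a median of -0.04 and none higher by 0.5. Mdfi was the only one lower by as much, at 169, 141 and 93.3 normalized counts (-0.85, interval -1.24 to -0.48). Its paralogue Mdfic, which encodes an auxiliary subunit of Piezo channels, stood at -0.10 with an interval from -0.18 to -0.01. Cdh2 (N-cadherin) was highest at 0.47, and Atp2a2, the calcium pump SERCA2 and the most abundant of them, stood at 0.14. As measured 3 of the 7 were positive and 4 negative. After the trend was subtracted 4 were positive and 3 negative, with a median of 0.02. Mdfi then stood at -0.85, Mdfic at -0.02, Cdh2 at 0.41 and Atp2a2 at 0.06.

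Of 11 swelling-activated and pannexin channel genes 7 reached the mean, 6 with a positive ratio, and none was past 0.5. The median was 0.32, and 0.16 with the trend subtracted. Lrrc8a, the required subunit of the volume-regulated anion channel, was highest at 0.49 (interval 0.19 to 0.81), Lrrc8e lowest at -0.06, and Ano6, a scramblase and the most abundant, stood at 0.14. Trend-subtracted, these 3 were 0.31, -0.13 and -0.01, and 5 of the 7 were positive.

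Of 20 genes of calcium entry, stores and pumps 14 reached the mean and 13 of these had a positive ratio, beside 51.1% of all tested genes, with a median of 0.29. The 4 higher by at least 0.5, beside 11.8% of all genes, of which all but Itpr3 were named after their values were seen, were the inositol trisphosphate receptors Itpr1 at 0.66, Itpr2 at 0.71 and Itpr3 at 0.89, and the pump Atp2a3 at 0.68. With the trend subtracted they stood at 0.23, 0.14, 0.11 and 0.39, in the same order, the list's median at 0.14, 10 of the 14 were positive and none was past 0.5. Orai3, a store-operated channel subunit, was lowest at -0.36 with an interval from -0.49 to -0.23.

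Of 12 calcineurin and NFAT genes 11 reached the mean, with a median of -0.07 and 1 gene past 0.5 each way. Nfatc2 was highest, at 39.0, 50.9 and 98.4 normalized counts (1.32, interval 0.78 to 1.92). Nfatc4, the lowest, stood at 5113, 4559 and 3549 (-0.53, interval -0.59 to -0.46), and the most abundant, the calcineurin B gene Ppp3r1, at -0.15. Subtracting the trend left Nfatc2 at 0.84, Nfatc4 at -0.91, Ppp3r1 at -0.01 and the median at -0.14.

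Of 20 genes of the primary cilium, where the polycystins act, 19 reached the mean. Their median was -0.24, and -0.18 with the trend subtracted, with 14 negative ratios and 5 positive, beside 48.9% negative over all tested genes. The 3 lower by at least 0.5, beside 3.77% of all genes, were Dync2li1 at -0.59, Ift57 at -0.52 and Bbs2 at -0.52, the last 2 named after their values were seen, and none was higher by as much. Trend-subtracted, they stood at -0.44, -0.55 and -0.49, so 1 of the 19 was past 0.5, and 13 were negative. Ift172 was highest at 0.48, or 0.24 with the trend subtracted, and Tulp3, the most abundant, stood at 0.08.

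**Figure D5:**
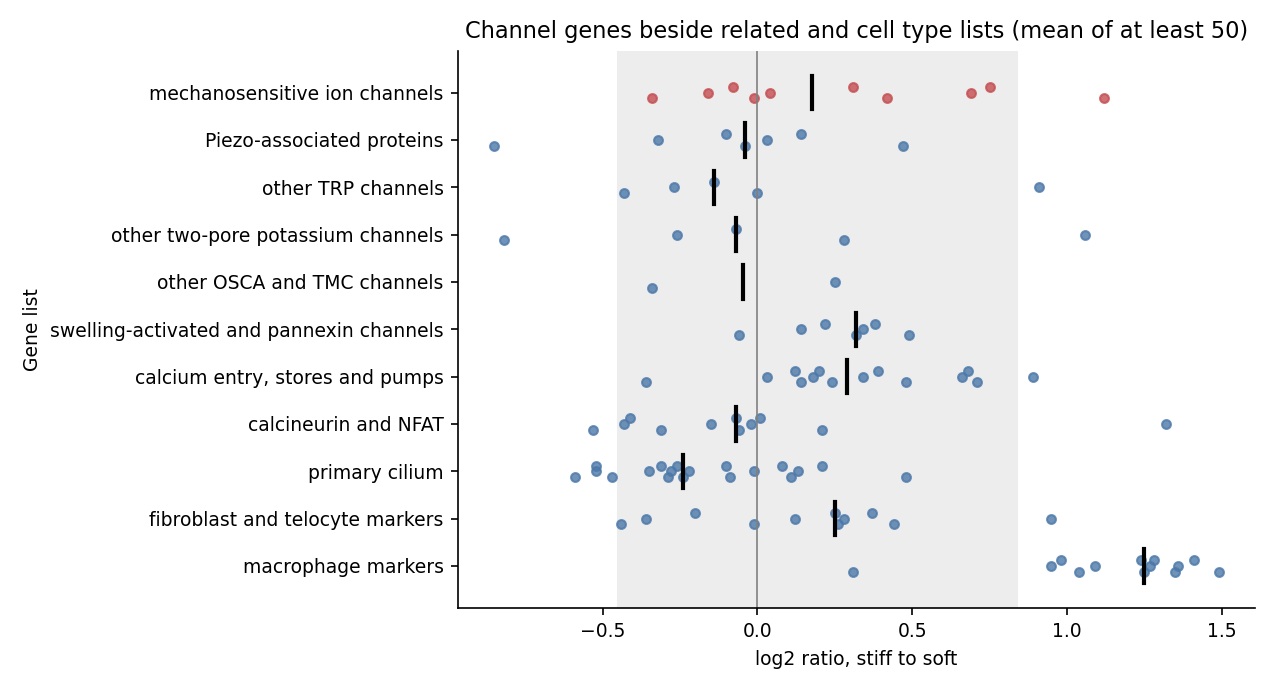
Stiff to soft log2 ratios of single genes (points) with a mean of at least 50 in the channel set (red), in related lists and in 2 cell type lists (blue); black bars are medians and the grey band is the 5th to the 95th percentile of all tested genes. The channel genes have a median of 0.18, the macrophage markers one of 1.25, and the primary cilium genes one of -0.24.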

How the data were processed

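The deposited values are signal values, gene counts divided by 1 size factor per library. That the authors normalized them with DESeq2 comes from the deposited files' names. Per the submitters' processing notes, bcl2fastq 2.20.0, STAR 2.7.9a, featureCounts of Subread 2.0.1, DESeq2 1.34.0 and the GRCm39 build were used. Their settings, the strand setting of the counting and the annotation are not given in the sources used here. The 3 deposited tables were identical, and columns were assigned by sample title.

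Dividing each column by its smallest positive value gave whole numbers for 100% of values (within 0.01), which were taken as reads. A count test needs replicates, so none was run. Genes were matched by symbol to GENCODE vM39, with 11655 of 11873 tested genes and all 10 members matched. Matched genes held 98.6% to 98.7% of reads. Log2 ratios used a pseudocount of 1, which understates changes of low genes. The trend was fitted locally on log2 length and GC content, with outlying genes given less weight, over the 300 genes nearest to each gene. Intervals and floors cover counting error only, and a count of 0 allows 3 reads.

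The members and lists were chosen with earlier results of these data known. All 10 members are named. From each pathway list the highest, lowest and most abundant gene are named, and for Piezo1 and Piezo2 the 3 nearest patterns. Alternatives were 2 pseudocounts, 4 scalings, other thresholds and minimum means, another transcript length and the trend subtraction. The steps were tested on simulated data. The tools were scipy 1.17.1, pandas 2.3.3, numpy 2.4.6 and matplotlib 3.10.9 under Python 3.11.15.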

Additional observations from a re-analysis of the deposited data

How the results depend on the processing

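Each stiffness had 1 library, so leaving out a replicate was not possible. No paired analysis was possible because each level had 1 library. Over 10 members, 3 comparisons and 8 settings, 198 of 240 ratios stayed inside their counting intervals, 31 left them with the sign kept or with an interval that holds 0, and 11 whose interval left out 0 changed sign, each of them after subtraction of the length and GC trend. Rounded to 2 decimals, 15 other sign changes were of 4 ratios whose interval holds 0, 7 of them with other scalings (Tmem63b stiff to soft, Trpv4 and Pkd2 intermediate to soft, at -0.03 to -0.01) and 8 with the trend subtracted (the same and Trpm7 stiff to intermediate, at -0.16 to 0.02). Of the 11, those with 300 nearest genes were Piezo1 at -0.05, -0.02 and -0.05 (stiff to soft, intermediate to soft, stiff to intermediate), Pkd1 at -0.81 and -0.19 (stiff to soft, intermediate to soft) and Tmem63a at -0.00 (intermediate to soft). With 1000 nearest genes, a setting chosen after seeing the data, they were Piezo1 at -0.05, -0.02 and -0.04, and Pkd1 at -0.78 and -0.20. The fit at Pkd1 had little support, as given above, and the cause was not tested. The 4 other scalings shifted the median stiff to soft ratio of all genes by -0.073 to 0 and changed the sign of no ratio whose interval left out 0.

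The number of members past 0.5 between intermediate and soft was 2, but 1 with a pseudocount of 10, with total read scaling, with and without mitochondrial and ribosomal protein genes, and with the trend subtracted over 300 or 1000 genes, and 0 with upper quartile scaling. With the trend subtracted over 300 or 1000 genes it was 4 (2 higher, 2 lower) in place of 2 higher between stiff and intermediate, and 4 (2 higher, 2 lower) in place of 3 higher between stiff and soft. By the length of all annotated exons 5 of 10 members kept their place in the order of levels. Counts over all genes at a log2 ratio of 1 were 428, 20 and 148 (stiff to soft, intermediate to soft, stiff to intermediate). They became 822, 215 and 451 with a minimum mean of 10, 238, 8 and 72 with one of 200, 5827, 3646 and 3904 with no filter, 1850, 546 and 1050 at 0.5, and 17, 1 and 8 at 2. Between intermediate and soft a pseudocount of 10 gave 10 and the trend over 1000 genes 13.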
